A study of Mus musculus with 48 samples.

Results

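The 10 genes described here encode proteins that neutrophils pack into granules, and they were grouped by the stage of neutrophil maturation at which the granule forms. Mpo, Elane, Prtn3 and Ctsg stood for the primary (azurophil) granules, Ltf, Camp, Ngp and Lcn2 for the secondary (specific) granules, and Mmp8 and Mmp9 for the tertiary (gelatinase) granules. The array carried 12 probes for these 10 genes, among 55681 probes with 34844 gene names, and every member had at least 1 probe. RNA was measured in blood and in the medial prefrontal cortex (mPFC) of the same 24 female C57BL/6J mice, all 17 weeks old and without any engineered allele named in the labels. Control mice had a sham operation and no stress, CUMS mice had a sham operation followed by chronic ultra-mild stress, OVX mice had both ovaries removed and no stress, and OVX+CUMS mice had both, with 6 mice in each of the 4 groups. All mice were under pentobarbital anesthesia when the blood was drawn, and the blood RNA came from the pellet of centrifuged heparinized blood, so red cells, platelets and all kinds of white cells contributed to it. The comparisons ask how the loss of ovarian hormones, the stress and their combination went with gene expression in blood cells and in the mPFC.

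Neutrophils are made in bone marrow, and their granule proteins are transcribed in waves. Primary granule genes are read in promyelocytes, secondary granule genes in myelocytes and metamyelocytes, and tertiary granule genes in band cells, while the mature segmented neutrophil of blood carries the finished proteins and little of the earliest messages. For this reason the messages of the earlier stages in blood are commonly read as a sign of immature neutrophils. In bulk samples such as these, however, fewer cells of a type and less RNA per cell cannot be told apart.

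The data were 48 Agilent 1-colour arrays. The 75th percentile of the signal, which was set to 0 on the log2 scale of each array, lay between 54.9 and 192 in blood and between 572 and 689 in mPFC, and 23664 to 34905 probes in blood and 31637 to 38096 in mPFC were well above background. The number of arrays, 6 in each group and tissue, limits the precision of every value below. Per the array headers the arrays of each tissue lay on 3 slides of 8 positions, namely slide 1 with all 6 controls and CUMS mice 1 and 2, slide 2 with CUMS mice 3 to 6 and OVX mice 1 to 4, and slide 3 with OVX mice 5 and 6 and all 6 OVX+CUMS mice. Slide and group therefore overlapped in large part, and results are given with and without slide as a term. The mPFC arrays detected all of the marker genes of neurons (5 of 5), astrocytes (4 of 4), oligodendrocytes (4 of 4), microglia (4 of 4) and endothelium (4 of 4), and the blood arrays all markers of T cells (8 of 8), B cells (7 of 7), NK cells (6 of 6), erythroid cells (7 of 7) and platelets (6 of 6), with 6 of 8 for monocytes and 2 of 8 for eosinophils and basophils. The lists of brain cells were not silent in blood, where 4 of 4 oligodendrocyte, 3 of 4 microglia, 3 of 4 endothelial, 2 of 5 neuron and 2 of 4 astrocyte genes were detected. The blood array of OVX+CUMS mouse 5 stood apart from the others in many myeloid genes, as did the mPFC array of the same mouse in a few of them, so the results that it moved are given with and without this mouse.

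The DNA just upstream of the genes is shown because granule genes of different stages are known to answer to different transcription factors, among them PU.1, which acts from early myeloid progenitors on, and C/EBP factors, of which C/EBP epsilon is needed for secondary granule genes. RefSeq promoters (assembly GRCm38.p6) matched 9 of the 10 genes, all but Mmp9. In the 250 bases before each start, the letters GAGGAA, the core of a PU.1 site, and TTNNGNAA, a C/EBP-type motif (TTNCNNAA on the other strand), were searched on both strands. The 4 sequences below are those of 2 primary and 2 secondary granule genes, in lower case with the matches in capitals, each read 5′ to 3′ along the strand of its gene. Elane lay at chr10:79886062-79886311 (plus strand), Ctsg at chr14:56102575-56102824 (minus strand), Ltf at chr9:111019042-111019291 (plus strand) and Ngp at chr9:110419558-110419807 (plus strand).
Elane: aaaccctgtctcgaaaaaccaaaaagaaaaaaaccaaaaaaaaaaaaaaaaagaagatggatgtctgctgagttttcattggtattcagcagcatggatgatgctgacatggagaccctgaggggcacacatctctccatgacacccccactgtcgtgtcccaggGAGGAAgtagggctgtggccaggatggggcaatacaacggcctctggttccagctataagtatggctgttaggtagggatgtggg
Ctsg: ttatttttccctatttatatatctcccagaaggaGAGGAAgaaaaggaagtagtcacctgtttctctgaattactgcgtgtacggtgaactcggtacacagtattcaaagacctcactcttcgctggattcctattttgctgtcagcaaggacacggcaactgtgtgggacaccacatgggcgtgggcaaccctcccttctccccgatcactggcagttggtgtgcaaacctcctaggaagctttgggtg
Ltf: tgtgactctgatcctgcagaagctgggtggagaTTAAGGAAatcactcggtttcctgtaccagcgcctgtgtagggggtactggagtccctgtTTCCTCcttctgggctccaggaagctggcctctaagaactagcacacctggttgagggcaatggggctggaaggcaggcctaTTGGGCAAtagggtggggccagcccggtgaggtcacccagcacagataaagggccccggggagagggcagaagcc
Ngp: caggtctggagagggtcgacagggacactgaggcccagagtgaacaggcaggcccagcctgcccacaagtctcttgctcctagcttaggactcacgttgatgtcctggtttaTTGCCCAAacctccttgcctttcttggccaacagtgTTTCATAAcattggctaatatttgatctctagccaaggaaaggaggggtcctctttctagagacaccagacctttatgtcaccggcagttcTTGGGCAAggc
All 4 primary granule promoters held GAGGAA and none held TTNNGNAA. Elane had its single match at position -85 from the start and Ctsg at -216, while Prtn3 had one at -95 and Mpo had a pair at -247 and -224. Of the secondary granule genes, Ltf held TTNNGNAA at -217 and -75 together with GAGGAA at -157, Ngp held TTNNGNAA at -138, -102 and -11 without GAGGAA, Lcn2 held one of each at -216 and -20, and Camp held neither. Mmp8, of the tertiary granules, held TTNNGNAA at -151 and -19 and GAGGAA at -219. Among all 32851 promoters of this length in the table, 36.8% held TTNNGNAA, 23.3% held GAGGAA and 8.87% held both. A match to these letters is a description of the sequence, and binding was not measured in these samples.

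The probes themselves lie in the mm9 assembly, a build other than that of the promoters, at chr10:79350902-79350961 for Elane, chr14:56718795-56718854 for Ctsg, chr9:110942873-110942932 for Ltf, chr2:32240199-32240258 for Lcn2, chr9:7568238-7568297 for Mmp8 and chr2:164780620-164780679 for Mmp9. The array annotation gives the gene and these positions, while the exon or untranslated part under each probe was not analysed here. Elane and Prtn3 (chr10:79343869-79344685) are direct neighbours, with 0 coding genes between them. Ngp (chr9:110324266-110324814), Ltf and Camp share a stretch of chromosome 9, with 8 coding genes between Camp and Ngp and 20 between Ngp and Ltf. Camp, which encodes the antimicrobial peptide CRAMP, had 2 probes annotated at chr9:109749911-109749970 and chr9:109749901-109749950. Both sequences are 60 bases long, while the annotated position of the second spans 50. Aligned by sequence, the 2 probes overlapped by 50 bases and differed at 2 of them. Counted from 1 at the 5′ end of the first probe, the differences were A16G and T20C, shown in capitals within 20 bases of each probe because the 2 probes did not read alike in mPFC.
First Camp probe: cagccAgagTagtaggcctg
Second Camp probe: cagccGgagCagtaggcctg

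Not all members could be measured in all mice. A probe was taken as detected where it was above background on all 24 arrays of a tissue and its signal passed 50 on at least 2 of them, which held for 20767 probes in blood (37.3%) and for 28357 in mPFC (50.9%). In blood, 8 member probes of 7 genes passed, namely Elane and Ctsg of the primary, Ltf, Camp (both probes) and Lcn2 of the secondary, and Mmp8 and Mmp9 of the tertiary granules. Mpo, the gene of myeloperoxidase, was above background on 6 of 24 blood arrays with its brighter probe (chr11:87617840-87617899) and on 1 with the other (chr11:87615121-87615180), Prtn3, the gene of proteinase 3, on 20, and Ngp, the gene of neutrophilic granule protein, on 12. In mPFC, 5 member probes of 4 genes passed, namely Elane, Prtn3, Camp (both probes) and Lcn2. Mmp8 and Ngp were above background on 0 of 24 mPFC arrays and Ltf on 1. In blood the geometric mean signal of Elane was 2752, against 124 for Ctsg, 18.4 for Prtn3 and 7.33 for the brighter Mpo probe. The Elane probe was above background on all 24 arrays of each tissue. Whether it read only the message of neutrophil elastase was not tested.

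In blood, OVX+CUMS mouse 5 had far more secondary and tertiary granule message than any of the other 23 mice, while its primary granule genes were not alike in this respect. Ltf, the gene of the iron-binding protein lactoferrin, had a signal of 4931 in this mouse and of 21.1 to 84.9 in the other 23. Ngp had a signal of 2284 against 3.03 to 36.8, and only 11 of the other 23 arrays were above background. Lcn2, the gene of the siderophore-binding lipocalin 2, had a signal of 16020 against 703 to 2165. None of these ranges reached the value of mouse 5, and for Ltf it was 46.1-fold over the highest of the others. The first Camp probe had a signal of 5246 against 243 to 469 and the second one of 2152 against 166 to 265. The collagenase gene Mmp8 had a signal of 1987 against 39.8 to 288, and the gelatinase gene Mmp9 one of 1847 against 69.6 to 594. After scaling, mouse 5 was above the mean of the other 5 OVX+CUMS mice by 7.02 on the log2 scale for Ltf (130-fold), 4.37 for Mmp8 (20.7-fold), 3.83 for Lcn2 (14.2-fold), 3.59 and 3.25 for the Camp probes (12-fold and 9.51-fold) and 3.02 for Mmp9 (8.11-fold). The order of these folds from gene to gene also carries the probes' own response and background, so it does not rank messages.

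The primary granule genes showed no such rise together. Elane, the gene of neutrophil elastase, had a signal of 2409 in mouse 5, which was 18th of the 24 blood arrays after scaling and 0.34 below the mean of the other 5 of its group on the log2 scale. Ctsg, the gene of cathepsin G, had a signal of 78.8, 21st of 24, and lay 0.53 below that mean. The weakly measured Prtn3 and Mpo went the other way, with the highest signal of all 24 blood arrays in mouse 5. For Prtn3 this was 58.4 against 5.50 to 32.3 in the others, and for the brighter Mpo probe 20.3 against 2.03 to 14.6, so the excess was under 2-fold over the next mouse for each. Of the 8 member probes detected in blood, 6 had their highest scaled value in mouse 5, while over all detected probes 10.8% did. The same 6 lay more than 8-fold above the rest of the group, as did 68 of all 20767 detected probes (0.327%). This mouse was known to stand apart when the genes were chosen, so these counts are a description.

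**Figure D1:**
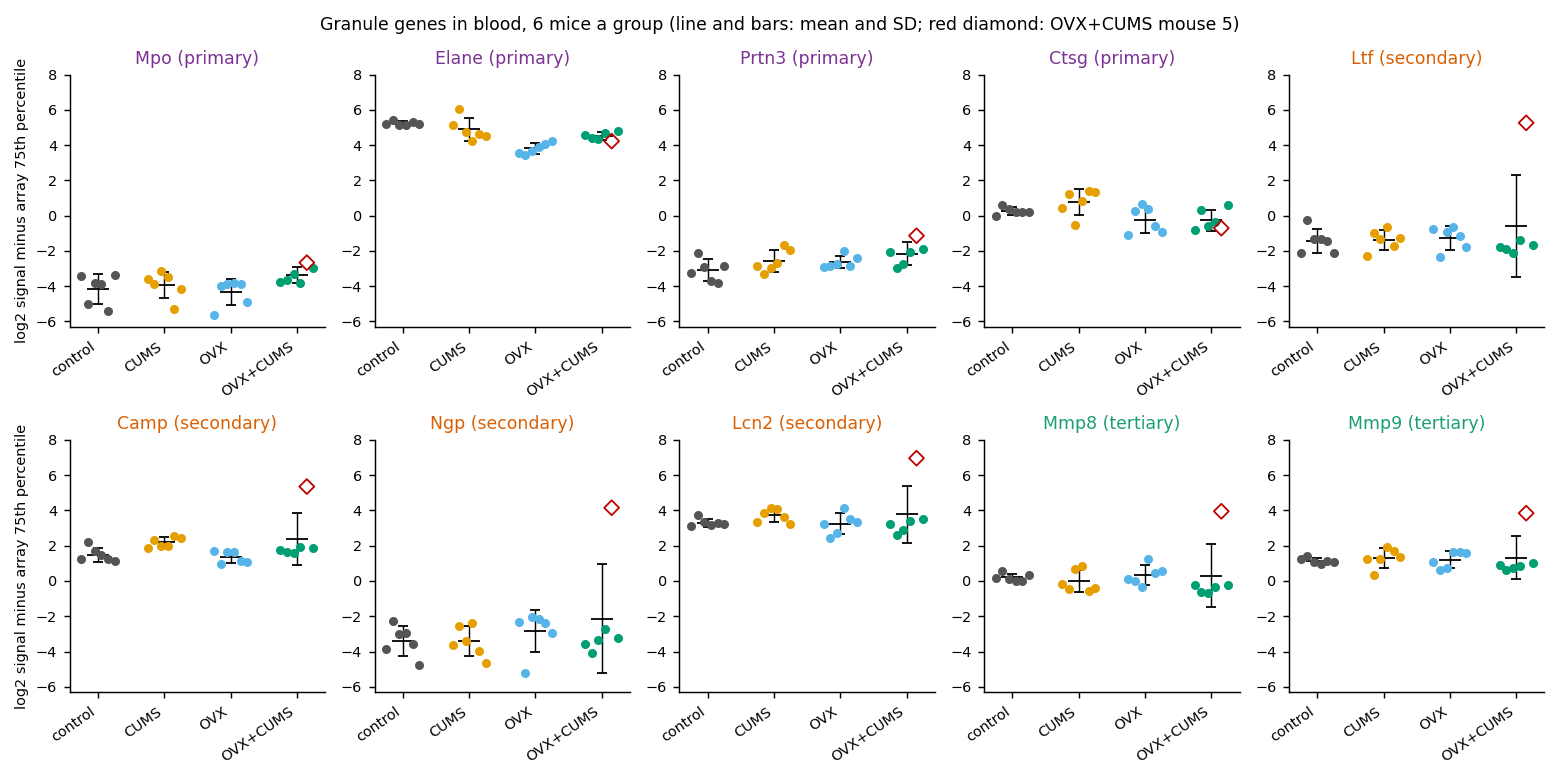
Scaled log2 level (75th percentile of each array set to 0) of the 10 genes, brightest probe of each, in the blood of every mouse, with 1 panel a gene, 1 point a mouse, groups on the x axis and lines for the group mean and SD. OVX+CUMS mouse 5 (red diamond) lies far above all other mice for Ltf, Camp, Ngp, Lcn2, Mmp8 and Mmp9, and within the range of the other mice for Elane and Ctsg.

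To set the stages side by side, a stage value was taken for each mouse as the mean over the genes of the stage of the log2 level minus that of the control mean, with no test. In blood, the secondary granule value was 0.00 ± 0.52 in control, 0.29 ± 0.38 in CUMS, 0.13 ± 0.62 in OVX and 0.86 ± 2.26 in OVX+CUMS mice (mean ± SD, n = 6). Without mouse 5, whose own value was 5.44, the OVX+CUMS group was at -0.05 ± 0.30 (SD, n = 5). Over the 3 secondary genes detected throughout, without Ngp, the OVX+CUMS value was 0.73 ± 1.98, with mouse 5 at 4.74 and the other 5 mice at -0.07 ± 0.25. The rise of this group mean thus rested on 1 of 6 mice. The tertiary granule value was 0.00 ± 0.18, -0.02 ± 0.49, 0.10 ± 0.49 and 0.15 ± 1.52 in the same order, and the last became -0.47 ± 0.18 (SD, n = 5) without mouse 5, which itself was at 3.22. Here the sign of the OVX+CUMS mean turned on the 1 mouse.

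The primary granule value was 0.00 ± 0.26 in control, 0.23 ± 0.18 in CUMS, -0.41 ± 0.39 in OVX and 0.12 ± 0.29 in OVX+CUMS mice (SD, n = 6), and 0.08 ± 0.29 in the last without mouse 5 (SD, n = 5). It depended on the 2 genes that were not detected throughout. Over Elane and Ctsg alone, it was -0.95 ± 0.35 in OVX and -0.62 ± 0.36 in OVX+CUMS mice, or -0.55 in the latter without mouse 5, which was at -0.98. Within the OVX+CUMS group the gap between stages was widest in mouse 5, where the secondary value exceeded the primary value by 5.07 on the log2 scale, against -0.45 to 0.28 in the other 5 mice of its group.

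**Figure D2:**
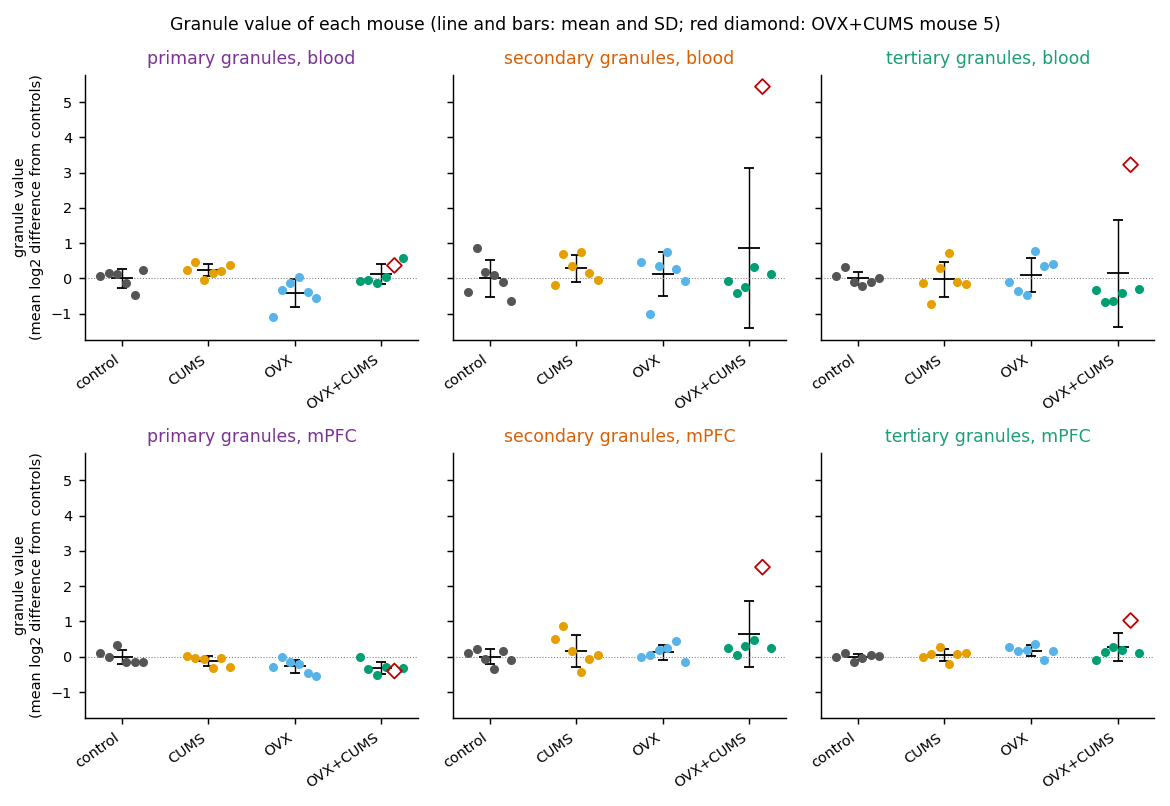
Stage value of every mouse in blood and in mPFC, as the mean log2 difference from the control mean over the genes of a stage, with 1 point a mouse and lines for the group mean and SD. OVX+CUMS mouse 5 (red diamond) lies at 5.44 for the secondary and 3.22 for the tertiary stage in blood, away from all other mice, and is not set apart for the primary stage.

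Other genes of the neutrophil moved with the secondary and tertiary granule genes in this mouse. Of 16 detected genes of a list of 18 other neutrophil genes, 14 had their highest blood value in mouse 5, with a median excess of 2.80 on the log2 scale over the rest of the group. S100a8 and S100a9, which encode the subunits of calprotectin, a protein of the neutrophil cytosol, had signals of 115770 and 296447 against 3548 to 29004 and 13706 to 110835 in the other mice, and Ly6g, the surface antigen of mouse neutrophils, one of 457 against 36.6 to 111. Of 18 detected genes of a list of 24 further granule and granule-program genes, 14 had their highest value in mouse 5, with a median excess of 1.96, among them Lrg1 (4.45) and Chil3 (3.97). Cebpe, the gene of C/EBP epsilon, was 0.78 above the group mean and was not the highest. Other cells moved as well. Among the detected markers, mouse 5 was highest for 6 of 6 monocyte genes (median excess 2.13), for 1 of 2 eosinophil and basophil genes (0.89) and for 1 of 7 erythroid genes (0.89). It was lowest for 4 of 7 B cell genes (-1.02), for 6 of 8 T cell genes (-0.56) and for 2 of 6 NK cell genes (-0.36), and highest for none of them. For platelets (6 detected genes) and proliferation (2) it was neither highest nor lowest for any. The share of all detected probes that were lowest in mouse 5 was not counted, so the counts of lowest genes are a description. The mean level of the monocyte list, set to 0 in controls, was 1.84 in mouse 5 and -1.32 to 0.43 in the others, and that of the other neutrophil genes 2.44 against -0.49 to 0.73. The part of these other cells in the granule values was not tested.

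In the mPFC of the same mouse, granule message was higher for Lcn2 and, close to background, for Ltf. Lcn2 had a signal of 1195 in mouse 5 against 73.1 to 231 in the other 23 mPFC arrays, 3.25 above the mean of the other 5 of its group on the log2 scale (9.50-fold). Ltf had a signal of 39.5 and was above background on this array alone, with signals of 2.42 to 14.4 in the others. Mmp8 had a signal of 10.1 against 2.66 to 5.30 but was not above background in any mPFC. The Camp probes, Elane and Mmp9 did not set this array apart, with a signal of 414 for the first Camp probe against 142 to 419 in the others and of 1219 for Elane against 1012 to 3401. Of the 5 member probes detected in mPFC, 2 were highest in mouse 5, Lcn2 and the first Camp probe, and 3.14% of all detected probes were. The first Camp probe was highest by only 0.03 on the log2 scale, and the second ranked 3rd of 24. Mouse 5 was in the higher of the 2 sets of arrays of the first Camp probe described below. Of the 5 other neutrophil genes detected in mPFC, only S100a9 was highest in mouse 5, and the median excess over the group was 0.13. S100a9 had a signal of 2517 in this mPFC array against at most 205 in the others. S100a8, above background on 17 of 24 mPFC arrays, had one of 812 against at most 71.7. The secondary stage value in mPFC was 0.64 ± 0.94 in OVX+CUMS mice (SD, n = 6) and 0.26 ± 0.15 without mouse 5 (SD, n = 5), which was at 2.54. Of its 4 genes, Ngp was above background on 0 and Ltf on 1 of the 24 mPFC arrays, so these values include background signal. The blood left in the dissected cortex was not measured, and its part in these values was not tested.

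**Figure D3:**
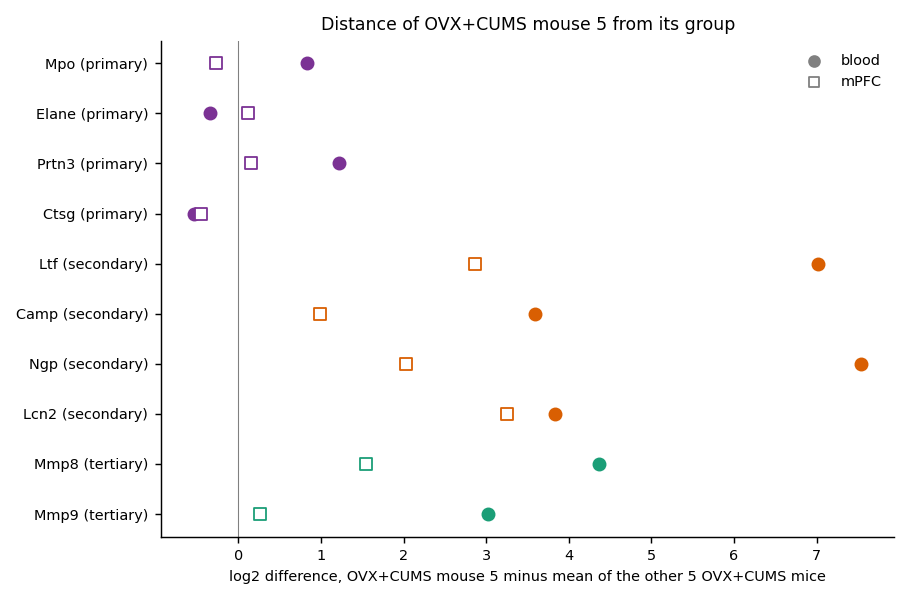
Log2 difference of OVX+CUMS mouse 5 from the mean of the other 5 mice of its group for each gene, in blood and in mPFC, with genes ordered by stage. In blood the secondary and tertiary genes lie between 3.02 and 7.02 among the detected probes, while Elane and Ctsg lie below 0, and in mPFC Lcn2 is at 3.25.

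With OVX, averaged over stressed and non-stressed mice, the probes of the 2 detected primary granule genes read lower in blood. Whether the Elane probe read only elastase message was not tested. Its signal was also 1012 to 3401 in mPFC, and its Pearson's r with Ctsg over the 24 blood arrays was 0.36. Elane lay on the log2 scale between 5.12 and 5.42 in control mice (median 5.19), between 4.23 and 6.05 in CUMS mice (4.68), between 3.46 and 4.22 in OVX mice (3.78) and between 4.23 and 4.82 in OVX+CUMS mice (4.48, or 4.35 to 4.82 without mouse 5). All OVX mice were below all control mice, and all OVX+CUMS mice were as well. The controls shared no slide with either group, and the share of all probes separated in this way was not counted. By limma on the 24 arrays, Elane fell by 0.89 ± 0.15 with OVX (SE, adjusted p = 0.000143). Ctsg lay between -0.01 and 0.61 in control (median 0.21), -0.56 and 1.39 in CUMS (1.03), -1.10 and 0.66 in OVX (-0.18) and -0.81 and 0.59 in OVX+CUMS mice (-0.49), with all 4 ranges overlapping. It fell by 0.77 ± 0.23 with OVX (SE, limma adjusted p = 0.0089). These 2 probes were the 2 of 8 member probes that passed, both lower, while 55.1% of all detected probes passed and 27.7% passed in the lower direction. The members were thus not called more often than the array as a whole. With the arrays shifted by their spike-in probes instead, 89.5% of the called probes were higher with OVX, against 49.8% here, and Elane was still lower while Ctsg lost its call (-0.42, adjusted p = 0.101).

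None of the secondary and tertiary granule genes changed with OVX in the fit of all 24 blood arrays. The log2 differences were 0.47 for Ltf, 0.02 for the first and -0.21 for the second Camp probe, -0.01 for Lcn2, 0.22 for Mmp8 and 0.05 for Mmp9. Leaving out mouse 5 made all 6 negative, at -0.12 for Ltf, -0.28 and -0.48 for the Camp probes, -0.33 for Lcn2, -0.14 for Mmp8 and -0.21 for Mmp9, and the second Camp probe then passed (SE 0.12, limma adjusted p = 0.00322), as did Elane (-0.87, adjusted p = 0.000293) and Ctsg (-0.72, adjusted p = 0.0154), beside 55.6% of all probes. The falls of Elane and Ctsg were not separable from the slides. With slide as a block, Elane was at -0.51 (limma adjusted p = 0.726) and Ctsg at -0.15 (adjusted p = 0.979), and 0% of all 20767 detected probes passed for OVX, with 1317 of them at an unadjusted p under 0.05.

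CUMS, averaged over both kinds of surgery, went with more Camp message in blood. The first Camp probe lay between 1.11 and 2.19 in control (median 1.36), 1.85 and 2.54 in CUMS (2.16), 0.97 and 1.67 in OVX (1.38) and, without mouse 5 at 5.35, between 1.59 and 1.95 in OVX+CUMS mice (1.75). The ranges of control and CUMS mice overlapped, as did those of OVX and OVX+CUMS mice. It rose by 0.85 ± 0.30 with CUMS (SE, limma adjusted p = 0.0239), or by 0.55 ± 0.13 without mouse 5 (adjusted p = 0.003). The second Camp probe rose by 0.70 ± 0.27 (adjusted p = 0.0389), or by 0.43 without mouse 5 (adjusted p = 0.00873). These were 2 of 8 member probes, both higher and both of 1 gene, while 48.5% of all detected probes passed and 19.1% passed in the higher direction. The second probe lost its call in 11 of the 24 ways to leave out 1 array, and the first in none. Shifting by the spike-in probes, under which 16% of the called probes were higher with CUMS, against 39.3% here, ended the calls of both (0.67 and 0.52, adjusted p = 0.0645 and 0.103), as did testing all probes without the filter. With slide as a block the first probe was at 0.93 (adjusted p = 0.078) and the second at 0.78 (adjusted p = 0.104).

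Of the tertiary granule genes, Mmp8 passed for CUMS only once mouse 5 was left out. Mmp9 passed only with mouse 5 left out and slide as a block. Mmp8 lay between -0.01 and 0.56 in control, -0.54 and 0.87 in CUMS, -0.35 and 1.25 in OVX and, without mouse 5, between -0.65 and -0.21 in OVX+CUMS mice, where only the OVX+CUMS range and that of the controls did not overlap. It was at -0.11 for CUMS with all mice (limma adjusted p = 0.816) and fell by 0.47 ± 0.18 without mouse 5 (adjusted p = 0.0311). With the Camp probes this made 3 of 8 member probes, beside 50.8% of all probes. Mmp9 was at 0.13 with all mice (adjusted p = 0.69) and at -0.12 without mouse 5. With slide as a block and without mouse 5, a fit chosen after seeing the data, 5 of 8 member probes passed for CUMS beside 55.2% of all probes, namely Elane (0.40, adjusted p = 0.0179), the Camp probes (0.63 and 0.51, adjusted p = 0.00998 and 0.0221), Mmp8 (-0.72, adjusted p = 0.0213) and Mmp9 (-0.58, adjusted p = 0.0115). With slide as a block and all mice, Elane alone of the 8 passed (0.37 ± 0.13, adjusted p = 0.0283), beside 49.7% of all probes. Ltf, Lcn2 and Ctsg did not pass for CUMS in any of these fits.

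**Figure D4:**
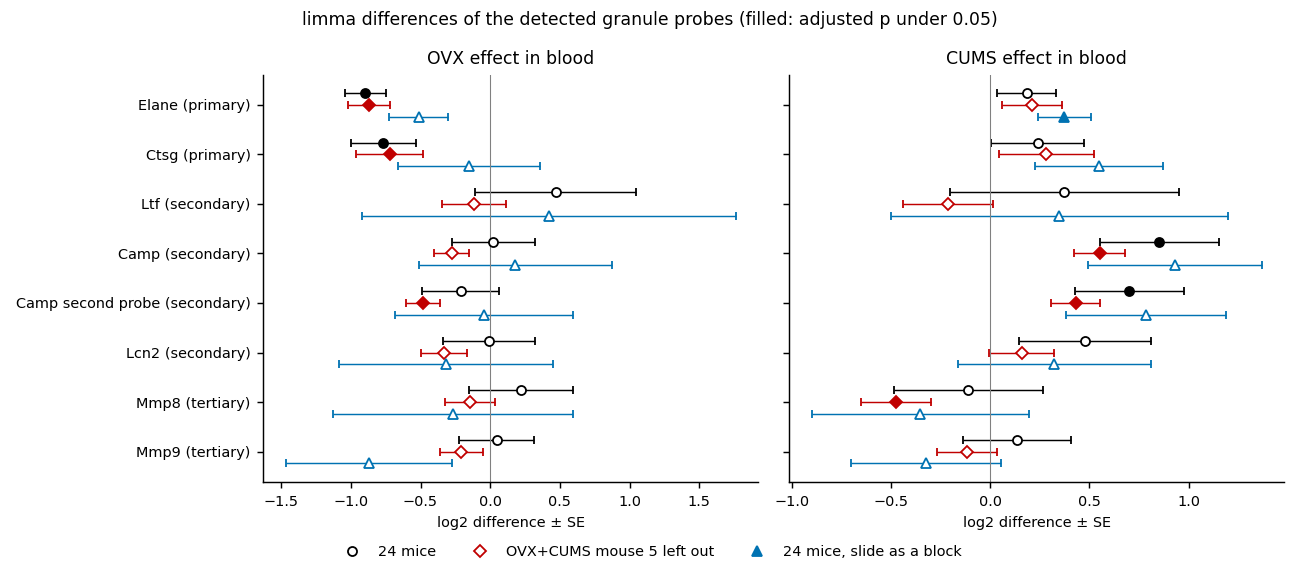
Estimated log2 difference with its standard error for the OVX effect and the CUMS effect on each detected member probe in blood, from limma fits of all 24 arrays, without OVX+CUMS mouse 5, and with slide as a block, filled where the adjusted p was under 0.05. Elane is at -0.89 for OVX with all arrays and at -0.51 with slide as a block, and Camp is above 0 for CUMS in each fit.

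No member probe passed for the interaction of OVX and CUMS in blood, where 1.42% of all detected probes did. The nearest was Elane, whose CUMS difference was larger in OVX than in sham-operated mice by 1.04 ± 0.29 on the log2 scale (SE, limma adjusted p = 0.0649). It passed when any of 4 single arrays was left out. One was CUMS mouse 2, with the highest Elane level of all (6.05) and the lowest 75th percentile of all blood arrays (54.9). The value was 1.27 without it (limma adjusted p = 0.000849). Without CUMS mouse 1 the value was 1.09, without OVX mouse 5 1.09 and without OVX mouse 6 1.12 (limma adjusted p = 0.0404, 0.0476 and 0.0337). These were the CUMS mice of slide 1 and the OVX mice of slide 3. Against the controls, OVX lowered Elane by 1.41 ± 0.21 (adjusted p = 0.000217), the only member probe of 8 that passed beside 27.1% of all probes. OVX+CUMS lowered Elane by 0.71 ± 0.21 (adjusted p = 0.0393), again the only one of 8 beside 6.26% of all probes, and the call was lost without mouse 5 (-0.65, adjusted p = 0.088), where 5.21% of all probes passed. In CUMS against control mice none of the 8 passed beside 29.7% of all probes, while without mouse 5 both Camp probes did (0.70 and 0.56, adjusted p = 0.00786 and 0.0186), beside 32.9%. With slide as a block, Elane was at -0.51 for OVX against control (limma adjusted p = 0.999). It was then at -0.14 for OVX+CUMS against control (adjusted p = 0.869). No slide held control mice together with mice of either of these groups. The 3 comparisons share the control mice.

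With mouse 5 left out, the secondary and tertiary granule genes of OVX+CUMS mice were set against those of the controls, with which they shared no slide. The log2 differences were -0.33 for Ltf, 0.27 for the first Camp probe and -0.17 for Lcn2, and -0.62 for Mmp8 and -0.32 for Mmp9. None passed the threshold, beside 5.21% of all probes. With mouse 5 the differences were 0.84, 0.87, 0.47, 0.11 and 0.18, also with none past it, beside 6.26% of all probes. Leaving out the mouse turned the sign for Ltf, Lcn2, Mmp8 and Mmp9.

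Slide 2 held 4 CUMS and 4 OVX mice, so that this pair of groups could be set side by side on 1 slide. These groups differed in surgery and in stress at once, so the comparison cannot tell the factors apart. Elane lay between 4.23 and 4.71 in these CUMS mice and between 3.46 and 3.87 in these OVX mice, a difference of 0.89. The first Camp probe lay between 1.96 and 2.54 against 0.97 and 1.67 (difference 0.75) and the second between 1.13 and 1.66 against 0.19 and 0.75 (difference 0.83). These 3 of the 8 detected member probes did not overlap between the groups, and 41.6% of all detected probes did not. For each of the 3 the exact two-sided permutation p was 0.0286, the smallest that 4 against 4 mice allow, and 0.0762 after Benjamini-Hochberg adjustment over the 8 probes compared. The other 5 probes overlapped, with an exact permutation p of 0.314 for Ctsg and of 0.114 for Mmp9.

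Within a group, Elane also differed by slide. The 2 CUMS mice on slide 1 had levels of 5.16 and 6.05 and the 4 on slide 2 levels of 4.23 to 4.71, so that the slide means lay 1.07 apart, more than the OVX effect. The OVX mice on slide 2 were 0.50 below those on slide 3. On slide 1 the CUMS mice were 0.38 above the controls, and on slide 3 the OVX+CUMS mice were 0.37 above the OVX mice (0.42 without mouse 5). For Ctsg, the OVX mice had a mean of 0.04 on slide 2 and of -0.77 on slide 3, 0.81 apart. The Ctsg means of the CUMS mice on slides 1 and 2 lay 0.11 apart. On slide 3 and without mouse 5, the first Camp probe was 0.65 and the second 0.39 higher in OVX+CUMS than in OVX mice. The control and the OVX+CUMS group each lay on 1 slide, and no slide held both, so for that pair the slide and the group cannot be told apart. No slide held both control and OVX mice either, so that pair also differed in slide throughout.

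**Figure D5:**
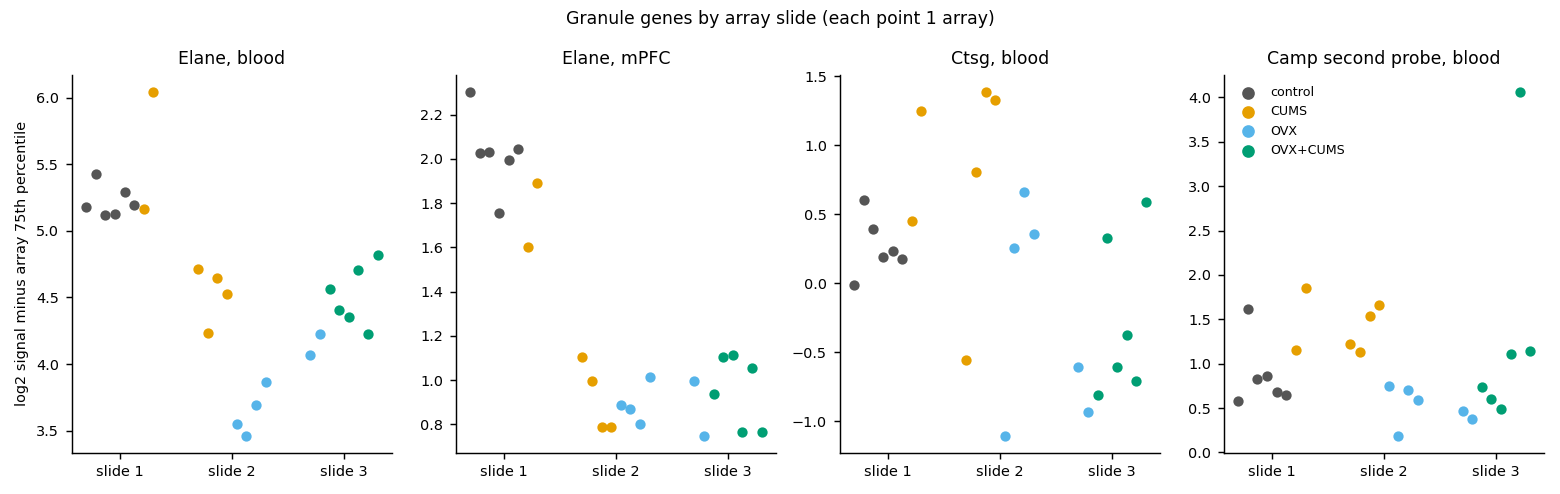
Scaled log2 level by slide for Elane in blood and in mPFC and for Ctsg and the second Camp probe in blood, with 1 point an array and the group shown by colour. The CUMS mice of slide 1 lie above those of slide 2 for Elane in both tissues, and on slide 2 the CUMS mice lie above the OVX mice for Elane and Camp in blood.

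In mPFC, the Elane probe was the one member probe that differed between groups by a wide margin. Whether it read elastase message there was not tested. Its level lay between 1.76 and 2.30 in control and 0.79 and 1.89 in CUMS mice, and its mean ± SD was 0.89 ± 0.10 in OVX and 0.96 ± 0.16 in OVX+CUMS mice (n = 6), or 0.94 ± 0.17 in the latter without mouse 5 (n = 5). Elane fell by 0.69 ± 0.10 with OVX (SE, limma adjusted p = 7.34e-05) and by 0.38 with CUMS (adjusted p = 0.0408), and the CUMS difference was 0.90 ± 0.20 higher in OVX than in sham-operated mice (adjusted p = 0.0337). It was the only one of the 5 detected member probes that passed for OVX, beside 30.9% of all probes, and for the interaction, beside 4.49%. For CUMS, 2 of 5 passed beside 4.19% of all probes, the other being the second Camp probe (0.17, adjusted p = 0.0374, and 0.0538 without mouse 5). That call was lost in 13 of the 24 ways to leave out 1 array, with slide as a block (0.21, adjusted p = 0.372) and with the spike-in shift (0.05, adjusted p = 0.925). Without mouse 5 the 3 Elane calls held, at -0.70 for OVX (adjusted p = 0.000142), -0.39 for CUMS (adjusted p = 0.0479) and 0.88 for the interaction (adjusted p = 0.0449), beside 28.9%, 3.19% and 3.18% of all probes. Of the 24 ways to leave out 1 mPFC array, 16 lost the Elane call for CUMS and 13 that for the interaction, while none lost that for OVX. Elane in mPFC followed the slides. All mPFC arrays of slide 1, controls and CUMS mice alike, lay between 1.60 and 2.30, and all arrays of slides 2 and 3, of 3 groups, between 0.75 and 1.11. With slide as a block, Elane was at -0.12 for OVX (adjusted p = 0.92), -0.10 for CUMS (adjusted p = 0.889) and 0.36 for the interaction (adjusted p = 1).

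The first Camp probe fell into 2 sets of mPFC arrays that did not follow the groups. On 17 arrays it was between 0.27 below and 0.08 above the second probe on the log2 scale, and on 7 arrays, of control mice 2 and 3, CUMS mice 1 and 5, OVX mouse 3 and OVX+CUMS mice 1 and 5, between 0.99 and 1.20 above it. The signal of the first probe was 142 to 216 on the 17 and 367 to 419 on the 7 arrays, while the second probe was at 152 to 218 on all 24. No array lay between the sets. In blood the difference was 0.46 to 1.29 (median 0.79) with no such gap, so that the means of the first probe in mPFC are mixtures of both sets.

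Blood had higher levels than mPFC of the 3 member genes detected in both tissues, Elane, Camp and Lcn2. Averaged over the groups, with the mouse as a block, the log2 level in blood exceeded that in mPFC by 3.34 ± 0.09 for Elane (10.1-fold, limma adjusted p = 4.51e-35), 5.67 ± 0.22 for Lcn2 (50.9-fold, adjusted p = 4.9e-28), 3.32 ± 0.18 for the first Camp probe (9.99-fold, adjusted p = 8.97e-22) and 2.74 for the second (6.70-fold, adjusted p = 2.89e-23). The median over all probes was 0.43. The 4 member probes detected in both tissues all passed, as did 96.5% of all probes tested there. Mmp8 was not well above background in any mPFC array. On the 75th percentile scale it was at least 49.3-fold higher in blood, with the lowest signal that counted as well above background on each mPFC array in place of its level there. The Mmp8 bound includes mouse 5 and was not taken on the other scalings. These folds are on the scale in which the 75th percentile of each array is 0, which stood at very different signals in the 2 tissues. Scaled by the spike-in probes, which moved the median over all probes to -1.36, the differences were 1.55 for Elane, 3.88 for Lcn2 and 1.53 and 0.95 for the Camp probes, and with quantile normalization within each tissue 0.86, 3.21, 0.85 and 0.28, all still higher in blood. Prtn3 was not tested between tissues, as it was above background on 24 mPFC but only 20 blood arrays. Its signal was 57.9 to 98.1 in mPFC and 5.50 to 58.4 in blood, and its mean log2 level was 0.36 higher in blood on the 75th percentile scale but 1.43 lower there on that of the spike-in probes, so that no direction can be given.

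The other genes of the neutrophil program are read against the array as a whole, of which 27.4% of the detected probes were called higher with OVX and 29.4% lower with CUMS, or 28% and 31.6% without mouse 5. Of the 16 detected other neutrophil genes in blood, 2 rose with OVX and none fell, namely Csf3r, the receptor of granulocyte colony-stimulating factor (0.34, limma adjusted p = 0.00595), and the activating receptor gene Trem1 (0.47, adjusted p = 0.0306). Both probes were also above background on all 24 mPFC arrays. Their median signals there were 30208 and 2717, against 22877 and 113 in blood. The part of neutrophils in the signal of these 2 probes was not tested. None of the 16 changed with CUMS, and without mouse 5 only Retnlg fell (-0.45, adjusted p = 0.00776). Of the 18 detected further granule genes, 6 rose with OVX and none fell, a share near that of the array. They were Serpinb1a, an inhibitor of neutrophil serine proteases (0.55, adjusted p = 0.000463), Cybb, Cyba, Ncf1 and Ncf4, which encode parts of the NADPH oxidase (0.48, 0.35, 0.42 and 0.32), and Cd63, of the granule membrane (0.28). Without mouse 5, 5 rose and the chitinase-like gene Chil3 fell (-0.94, adjusted p = 0.00189). With CUMS, Serpinb1a fell (-0.49, adjusted p = 0.00197), and without mouse 5, 7 of the 18 fell, not far from the share of the array, among them Cybb, Ncf1, Ncf4, Cebpe and Cebpb, with log2 differences of -0.22 to -0.50. With slide as a block no probe of the array passed for OVX, these included. Levels of other blood cells moved with both factors, as 5 of 7 B cell markers rose and 6 of 7 erythroid markers fell with OVX, and 6 of 7 B cell markers fell and 6 of 7 erythroid markers rose with CUMS, beside the shares of all probes given above for each direction. The mean level of the B cell list was -0.28 to 0.14 in control, -0.78 to -0.08 in CUMS, 0.36 to 0.48 in OVX and, without mouse 5, -0.13 to 0.34 in OVX+CUMS mice, and that of the erythroid list -0.41 to 0.85, 0.24 to 1.28, -0.92 to 0.23 and -0.34 to 0.11. Their part in the granule values was not tested.

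Across the blood arrays, the nearest genes in pattern to the brightest member of each stage were found by Pearson's r over the detected probes, as a description without a test. For Elane these were Fbxw21 (r = 0.99 over 24 and over 23 arrays), an intergenic RNA of chromosome 13 without a gene symbol, AF067063, Baiap2 and Rgs7 (each 0.98 over 24). The other primary granule gene, Ctsg, followed Elane only weakly, with r = 0.36 over 24 and 0.35 over the 23 arrays without mouse 5. For Lcn2 the nearest were the chemokine receptor gene Cxcr1 (0.96), Chi3l1 (0.95), the formyl peptide receptor gene Fpr1 (0.94), Il1r2 and Mrgpra2b (both 0.93). Over the 23 arrays they were Cxcr1 (0.90), Lrg1 (0.89), Il1r2 and Bst1 (both 0.84) and Mrgpra2a (0.83). For Mmp9 they were Slc16a3 (0.97), Pram1, Cfp and Mocos (each 0.96) and Pilra (0.95), and over 23 arrays Pram1 (0.93), Slc16a3 (0.92), Pilra (0.90), Cfp (0.89) and Slpi (0.87). The likeness among members rested in part on mouse 5, as r of Lcn2 with Ltf went from 0.90 over 24 to 0.56 over 23 arrays, with Camp from 0.86 to 0.47, with Mmp8 from 0.89 to 0.59 and with Mmp9 from 0.87 to 0.57. With Elane it was 0.04 and 0.29. The arrays share slides and scaling, which such values include.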

How the data were processed

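RNA from the blood and the mPFC of 24 mice was hybridized to 48 Agilent SurePrint G3 Mouse GE arrays with 1 dye. The authors quantified the spots with Feature Extraction (version 10.7.3.1), and the deposited intensity of each spot is its background-subtracted processed signal. The authors also deposited a table of log2 values, normalized in GeneSpring by a shift of each array to its 75th percentile without centring of genes; its values equal the log2 signals up to 1 shift per array, with column medians of -3.89 to -2.66, and it was used as an alternative.

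Control spots (3671 of 62976) and the outlier spots marked in the files (98 to 206 per array) were left out, and no spot was saturated. Spots of a probe were averaged, and each array was set to 0 at its 75th percentile after taking log2. Probes above background on all 24 arrays of a tissue with a signal over 50 on at least 2 arrays were tested with limma (version 3.58.1, R 4.3.3; lmFit and eBayes), with surgery, stress and their interaction as terms and Benjamini-Hochberg adjustment over all tested probes at 0.05. Groups came from the labels. The blood and mPFC comparison took the mouse as a random block. Exact permutation tests used scipy (version 1.17.1, Python 3.11.15). The fits were tested on simulated data. For a gene with several probes the one with the highest mean in blood stands for it.

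The genes named are the 10 members, the 5 genes nearest in pattern to the brightest member of each stage, and those members of the lists that passed or bear on a result. The members and all lists (other neutrophil genes, further granule genes, eosinophils and basophils, monocytes, B, T and NK cells, erythroid cells, platelets, proliferation, and 5 brain cell types) were chosen with earlier results of these data known, OVX+CUMS mouse 5 included. Values of 1 gene of these lists are not reported here. Alternatives were the background correction, 3 other scalings, no filter, no moderation of the spread, the authors' values, slide or replicate number as a block, and leaving out each array. Slide as a block without mouse 5, and no filter without mouse 5, were added after seeing the data. Replicate numbers did not pair the mice across groups, as the deviations of same-numbered mice correlated at -0.51 to 0.49 in blood and -0.23 to 0.39 in mPFC.

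Since 48 arrays were scaled to their own 75th percentile, a difference is relative to the bulk of the probes. The cells of the blood pellet were not counted, so a level mixes the number of cells and the message in each.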

Additional observations from a re-analysis of the deposited data

Results flagged for a closer look

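Within groups of 6 arrays, 24 of 120 sets of values (the 12 member probes and 3 stage values in each group and tissue) had an array whose gap to its nearest neighbour, divided by the whole range, exceeded Dixon's critical value, which chance passes in about 1 in 20 groups. The sets share arrays and genes, and the genes were chosen with OVX+CUMS mouse 5 known to stand apart, so its gaps are a description and no test. OVX+CUMS mouse 5 was that array in 13 of the 24, 9 in blood and 4 in mPFC. In blood its gap was 0.900 of the range for Ltf, 0.905 and 0.817 for the Camp probes, 0.834 for Ngp, 0.790 for Lcn2, 0.903 for Mmp8, 0.879 for Mmp9, 0.872 for the secondary and 0.901 for the tertiary stage value. In mPFC it was 0.663 for Ltf, 0.773 for Lcn2, 0.830 for the secondary and 0.657 for the tertiary stage value. There Mmp8 was above background on 0, Ltf on 1 and Mmp9 on 5 of 24 arrays, and Ngp on 0, so the stage values and that of Ltf include background signal. No primary granule probe was among these.

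The other 11 lay in other mice, many of them for probes near background. In blood, control mouse 2 was highest for the second Camp probe (0.731) and for Lcn2 (0.655), OVX mouse 3 was highest for the dimmer Mpo probe (0.853) and OVX mouse 2 lowest for Ngp (0.714). In mPFC, the dimmer Mpo probe was highest in CUMS mouse 5 (0.713) and in OVX+CUMS mouse 6 (0.668), Ctsg in control mouse 3 (0.807) and in OVX+CUMS mouse 1 (0.644), Ltf in OVX mouse 5 (0.641), the first Camp probe in OVX mouse 3 (0.801) and Ngp in CUMS mouse 2 (0.787). The CUMS difference of Elane in mPFC depended on the surgery, with an interaction of 0.90 on the log2 scale, and it moved with the slides.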

How the results depend on the processing

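Of 8 member probes in blood, 2 passed for OVX. The count was 1 with arrays shifted by their spike-in probes and 0 with slide as a block, with or without mouse 5, and 2 to 3 when any array was left out. For CUMS it was 2, and 0 without the filter or when shifted by spike-ins, 1 without moderation, under normexp or with slide as a block, 5 with slide as a block without mouse 5, and 1 to 3 when any array was left out. The interaction gave 0, 1 with normexp, and 0 to 1 when an array was left out (1 without CUMS mouse 1 or 2 or OVX mouse 5 or 6). CUMS against control gave 0, and 0 to 2 when an array was left out (1 without CUMS mouse 2, Elane at -0.57, and 2 without mouse 5). OVX against control gave 1, and 0 with slide as a block, with or without mouse 5. OVX+CUMS against control gave 1, and 0 under each alternative run except the authors' values and some of the single arrays left out (0 to 1). In mPFC, 1 of 5 passed for OVX, and 0 with slide as a block. The 2 for CUMS became 1 with the percentile over detected probes or without moderation, and 0 without the filter, when shifted by spike-ins or with slide as a block (0 to 2 when an array was left out). The 1 for the interaction became 0 without the filter, when shifted by spike-ins or with slide as a block (0 to 1). The 4 of the tissue comparison became 12 of 12 without the filter. Among the added probes, Ngp and Mmp8 were above background on 0 of 24 mPFC arrays, and the dimmer Mpo probe on 1 in each tissue. Arrays were scaled to a lower signal in blood than in mPFC, so a background signal reads higher in blood by the scaling alone. For such probes the count of 12 therefore cannot show a tissue difference. The share of all probes called in that fit is not given here. The causes of these changes in the counts were not tested.

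The OVX+CUMS primary stage value in blood, 0.12, was -0.17 with normexp and -0.62 over detected members only, and 0.03 to 0.18 when an array was left out. The secondary value, 0.86, was -0.054 to 1.12, and the tertiary value, 0.15, was -0.47 to 0.31, the lowest of each without mouse 5. Mmp9 for CUMS in blood went from 0.13 to -0.58 with slide as a block without mouse 5. Of 2237 alternative fits of single member probes, 155 turned the sign, 154 of them uncalled in both.

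The replicate block lost the Elane call of OVX+CUMS against control (1 to 0) and changed no other count of members. Elane in that comparison also lost its call without any 1 control or OVX+CUMS mouse 1, 2, 3, 4 or 5. The second Camp probe for CUMS in blood lost it without CUMS mouse 2, 5 or 6, OVX mouse 2, 5 or 6, or control mouse 1, 3, 4, 5 or 6. In mPFC, Elane kept its CUMS call without CUMS mouse 1 or 2, OVX mouse 6, OVX+CUMS mouse 2, 3 or 5 or control mouse 4 or 5, and its interaction without CUMS mouse 1 or 2, OVX mouse 5 or 6, OVX+CUMS mouse 2, 4, 5 or 6 or control mouse 2, 3 or 4, and lost them without any other. The second Camp probe kept its CUMS call there without CUMS mouse 1 or 2, OVX mouse 2, 4 or 6, OVX+CUMS mouse 3, 4 or 6 or control mouse 1, 4 or 5.

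Over these alternatives the number of all probes called in blood ran from 0 to 18309 for OVX (11447 as reported), 3420 to 11809 for CUMS (10072), 0 to 1984 for the interaction (294), 0 to 8243 for CUMS (6158), 0 to 7040 for OVX (5624) and 0 to 2080 for OVX+CUMS (1301) against control, and in mPFC from 0 to 9461 for OVX (8751), 0 to 3328 for CUMS (1189) and 0 to 3854 for the interaction (1274). Shifting by spike-ins moved the median of all blood probes from 0.04 to 0.39 for OVX and from -0.03 to -0.21 for CUMS, and the share of calls that were higher from 49.8% to 89.5% and from 39.3% to 16%. In mPFC that share went from 62% to 1.7% for OVX and from 55.7% to 0.7% for CUMS. Elane stayed lower with OVX in both tissues under it, and Camp higher with CUMS in blood. Signals near background limit Mpo, Prtn3 and Ngp in blood and all members but Elane, Prtn3, Camp and Lcn2 in mPFC.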
